A study of Drosophila melanogaster with 2 samples.

Results

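Relaxed peaks of Zelda chromatin immunoprecipitation whose summits lie in protein-coding exons are described here. They were taken from the relaxed dm6 peak list that the authors called on the reads of both replicates together. A summit was kept if it fell inside an annotated coding interval, in no annotated untranslated interval, and more than 500 bp from every protein-coding transcript start. This left 3189 of 30000 peaks, or 10.6%, in 2560 genes. The coding sequence that the rule could keep, called eligible below, measured 17.8 Mb and made up 13.3% of the non-gap bases of the 6 main chromosome arms. The signal, which is the authors' own value per peak, was not used to choose these peaks. The ChIP was done on whole Drosophila melanogaster embryos of mixed sex, aged 0 to 24 hours, from 1 transgenic line that expresses vfl with GFP fused to its C-terminus, and chromatin was sonicated to a size range of 200 to 800. The sample description names anti-GFP as the antibody, while the labels list vfl under antibody. The series holds this 1 group with 2 biological replicates, which the labels number 2 and 3, and a control alignment that is named but was not analysed here. Whole embryos of that age span mix many stages and cell types, so a weak peak in a few cells and one in many cells cannot be told apart.

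Zelda is encoded by zld, which is listed under its other symbol vfl in the labels. It is a zinc finger protein that binds the word CAGGTAG, opens chromatin in the early embryo and starts zygotic transcription. Its best known targets are promoters and enhancers of patterning and cellularization genes. Coding exons differ from both in their make-up, because their sequence is set by the protein they encode and, in flies, they hold more G and C than introns. A factor's motif can thus occur in an exon because of the codons that spell it.

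Examples of the textbook word in coding exons come from members that held CAGGTAG wholly in coding sequence within 100 bp of the summit and had a summit in both replicate lists. A selection of 6 is shown to let the word be seen in its coding context; it is not the full set and not a ranking. They are printed from the RefSeq sequence of NCBI Release 6 (dm6), each as 30 bases 5′ to 3′ on the strand of the word, with CAGGTAG in capitals. They lie in CG13096 (chr2L:8510564-8510593, + strand), in the mitotic kinase gene Nek2 (chrX:7889616-7889645, − strand), in rin, which encodes a stress granule protein (chr3R:13649631-13649660, + strand), in the ATP synthase subunit gene ATPsynbeta (chr4:1034319-1034348, − strand), in SREBP, a regulator of lipid synthesis (chr3L:19795635-19795664, + strand), and in the clathrin light chain gene Clc (chr3L:20243398-20243427, − strand).
CG13096: ccgtcgcacaaCAGGTAGtcgtagctgttg
Nek2: ccatcggtcaacCAGGTAGcccaagcagct
rin: tggtgccccagCAGGTAGctcctgtagcgg
ATPsynbeta: agaaagcaacttCAGGTAGatggtcgtagt
SREBP: accgacaagcaCAGGTAGtcgggccagcaa
Clc: ctgcttgaggtgCAGGTAGatggatcgcat

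The second set comes from members in the authors' thresholded list, the peaks kept for reproducibility between replicates. Both windows hold the word AGNNGGCGC, in which N is any base and which resembles the core of the site bound by the fly insulator protein CTCF. Pde1c encodes a calcium-dependent cyclic nucleotide phosphodiesterase (chr2L:11816558-11816587, − strand), and klar a protein of the nuclear envelope that links nuclei and lipid droplets to motors (chr3L:506135-506164, − strand). The capitals mark the word, which was chosen after these windows were seen.
Pde1c: gcggagccggcAGATGGCGCtgcggcctaa
klar: cgctgtgagatAGAGGGCGCtgccacggtg

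Coding exon peaks were weak and rare at the top of the list. Their signal had a median of 20.1, with the middle 50% between 17.5 and 24.1, against a median of 23.7 for all 30000 peaks and 22.9 for intron peaks. Their median rank was 20115, and 262 of 3189 ranked in the first 10000. The density was 179 members per Mb of eligible coding sequence, against 224 relaxed peaks per Mb of the genome. Of the first 1000 ranks 1 peak was a member, and of the 1000 ranks after 20000 there were 159. The authors' deposited −log10 q value reached its ceiling of 3.94 in 9 members, against 4383 peaks of the whole list.

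**Figure D1:**
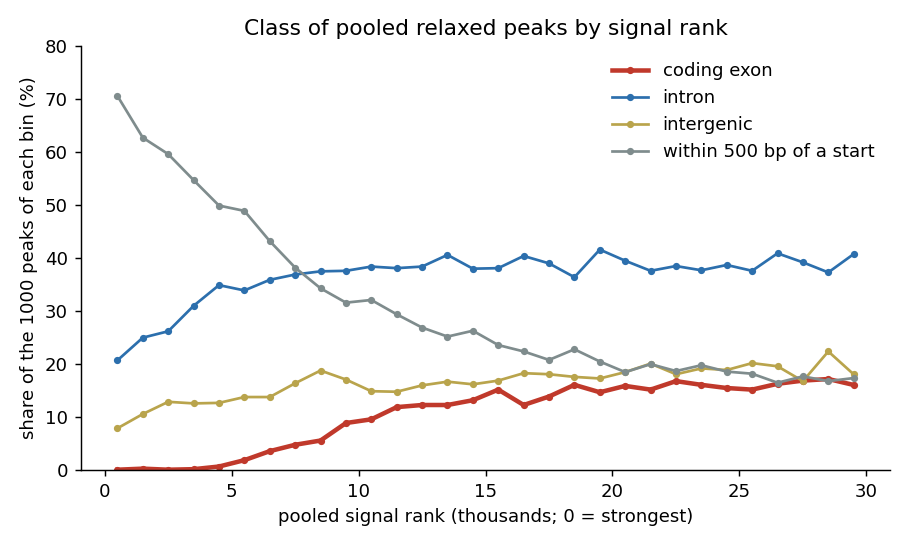
Share of coding exon, intron, intergenic and promoter (within 500 bp of a start) summits in each bin of 1000 pooled signal ranks, from the strongest at the left; points are bins. Coding exon peaks made up 0.1% of the bin that ends at rank 3000, 8.9% of the bin that ends at rank 10000 and 16.1% of the last bin.

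The thresholded list held 5 members, or 0.157% of the 3189, where 9.59% of all pooled peaks were in it. The strongest was in otp, which encodes a homeodomain protein, in the last of 7 coding exons on arm 2R. It had signal 214 and rank 217 in the pooled list, rank 262 in replicate 2 and rank 204 in replicate 3, and it lay 4651 bp from the nearest start. Pde1c followed with signal 101 and rank 1106, at the very end of its coding sequence, with ranks 1364 and 1066 in replicates 2 and 3. The exon summit of bif, which encodes an actin-associated protein of photoreceptors, had signal 85.1 and pooled rank 1584. That of klar had signal 81.9 and ranks 1332 and 3802 in replicates 2 and 3. That of scrib, which encodes a polarity scaffold of epithelia, had signal 72.2 and pooled rank 2145. All 5 summits were thus in both replicate lists and in 5 different genes on 5 arms. The next member below the threshold was in CG10357, with signal 53.7 and rank 3637.

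Presence in the replicates differed between them. Of the 3189 members, 2143 (67.2%; 95% Wilson interval 65.6 to 68.8) had a replicate 2 summit within 200 bp, where 71.1% of all pooled peaks did. A replicate 3 summit stood within 200 bp of 1449 (45.4%; 43.7 to 47.2), where 67.2% of all did. Summits of both replicates stood at 739 (23.2%; 21.7 to 24.7), where 44.9% of all had both. The remainder were 1404 with replicate 2 alone, 710 with replicate 3 alone and 336 with neither. Members were therefore close to the whole list in replicate 2 and well below it in replicate 3. Pooled peaks in 3′ untranslated intervals were near members in the share with both (26.8%) and with neither (10.3%, against 10.5% of members). A replicate 2 summit stood at 60.3% of those peaks and a replicate 3 summit at 56.2%. Reads of both replicates enter the pooled list, so these shares are not independent of the call. Intervals are over peaks, treat neighbours as independent and cover counting error only, and neighbouring members can share 1 replicate summit, as the pair in bif, 204 bp apart, did in replicate 3.

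Because members are weak, they were also set against intron peaks of like rank. From the threshold down to rank 10000, 77.4% of 257 members and 83.2% of 2512 intron peaks had summits of both replicates, a difference of −5.81 percentage points (Fisher's exact test, two-sided, Benjamini-Hochberg adjusted over 3 rank bands, adjusted p = 0.0361). At the next 10000 ranks the shares were 32.7% of 1315 members and 37.9% of 3889 intron peaks (−5.18 points, adjusted p = 0.00219 by the same Fisher's exact test). At the last 10000 ranks they were 6.51% of 1612 members and 7.87% of 3878 intron peaks, and the −1.35 points did not pass (adjusted p = 0.0907, Fisher's exact test). The p-values are over peaks and not over samples. With starts at least 1000 bp away in both classes neither of the first 2 bands passed (−6.56 and −3.26 points, adjusted p = 0.125 each, Fisher's exact test), and with 100 bp counted as shared the second did not (−2.29 points, adjusted p = 0.135). The other settings widened the gap: the first band differed by −10.2 points with 100 bp counted as shared and −8.45 with 400 bp (adjusted p = 0.00354 and 0.000139, Fisher's exact test). With 400 bp the second band differed by −10.1 points and the third by −7.39 (adjusted p = 3.8e-10 each, Fisher's exact test), while with 100 bp the third differed by 0.0687 points (adjusted p = 0.929).

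The gap lay on the side of replicate 3. A replicate 2 summit stood at 94.2, 76.3 and 55.4% of members in the 3 bands, against 93.6, 70.0 and 45.1% of intron peaks. A replicate 3 summit stood at 83.3, 53.1 and 33.0% of members, against 89.6, 65.7 and 45.2% of intron peaks. In the lower bands members were thus above introns in replicate 2 and below them in replicate 3, with intervals that do not overlap. Reads of both replicates enter the pooled rank, so the difference in replicate 2 and that in replicate 3 are not independent of each other.

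**Figure D2:**
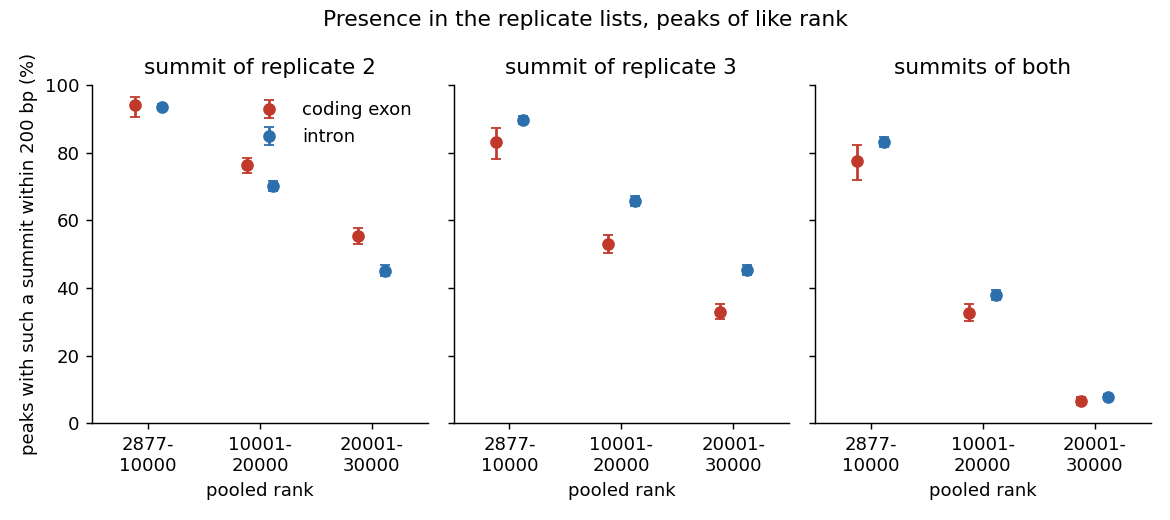
Share of coding exon peaks (left point of each pair) and intron peaks (right point) with a summit of replicate 2, of replicate 3 or of both within 200 bp, in 3 bands of pooled rank; bars are 95% Wilson intervals over peaks. Coding exon peaks lie above intron peaks for replicate 2 at the last 10000 ranks (55.4 against 45.1%) and below them for replicate 3 (33.0 against 45.2%).

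The replicate lists come from separate reads, and the same rule applied to each gave 3965 coding exon peaks in replicate 2 and 2620 in replicate 3, a mean of 3292 ± 951 (SD, n = 2), out of 30000 each. That is 223 and 147 per Mb of eligible sequence. Of replicate 2's coding exon peaks, 17.6% (16.5 to 18.8) had a replicate 3 summit within 200 bp, against 41.6% of its intron peaks and 64.8% of its promoter peaks. Positions tiled every 200 bp over the eligible coding sequence, the background for this count, had a replicate 3 summit that near in 5.61%. Of replicate 3's coding exon peaks, 27.5% (25.8 to 29.3) had a replicate 2 summit, against 40.4% of its intron peaks, 61.2% of its promoter peaks and 8.22% of tiles. In both directions coding exon peaks recurred more often than the tiles and less often than intron, intergenic and promoter peaks. Ranks are not matched in these shares.

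Among the 739 members found in both replicates, the replicate signals were weakly related. Spearman's rank correlation was 0.0961 and Pearson's r of the log2 signals 0.241. Over the 734 of them below the threshold the values were 0.0776 and 0.0931. Over 3869 intron peaks below the threshold that were found in both they were 0.264 and 0.285. Ranks were not matched: 199 of those members and 2091 of those intron peaks ranked in the first 10000. Whether the correlations differ at like rank was not examined. These are descriptions over peaks that share 2 libraries. Presence itself followed the pooled signal. With the members cut by signal into 5 equal parts, 61.9, 28.7, 16.8, 5.49 and 2.98% had both replicates, the strongest part first. The pooled list was called on the reads of both replicates, so this fall is not independent of the call. It is not particular to members either, as intron peaks fell over the 3 rank bands from 83.2 to 37.9 and 7.87%.

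Coding exon peaks of the replicates differed in GC content, with wide overlap. Windows of 100 bp to each side of member summits averaged 53.4% G and C, against 51.8% over 88777 eligible tiles, and the median of intron peaks was 40.3%. Coding exon windows averaged 53.9% in replicate 2 and 52.5% in replicate 3, a mean of 53.2 ± 0.99% (SD, n = 2), so the members' excess over the tiles, seen in both, was of the size of the gap between replicates. Whole lists averaged 43.2% in replicate 2 and 41.6% in replicate 3. Per Mb of eligible sequence there were 148 members in windows under 45% GC, 142 at 45 to 50%, 157 at 50 to 55%, 212 at 55 to 60% and 277 at 60% or more. Replicate 2 had 1.05 times as many coding exon peaks as replicate 3 in windows under 45%, 1.31 at 45 to 50%, 1.59 at 50 to 55%, 1.58 at 55 to 60% and 2.03 at 60% or more. The share of members with a replicate 2 summit was 73.2% (69.4 to 76.7) at 60% GC or more and 63.9% (59.3 to 68.2) under 45%, and that with a replicate 3 summit 41.3% (37.3 to 45.4) and 48.1% (43.5 to 52.7). The part of GC content in the difference between the replicates was not tested.

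**Figure D3:**
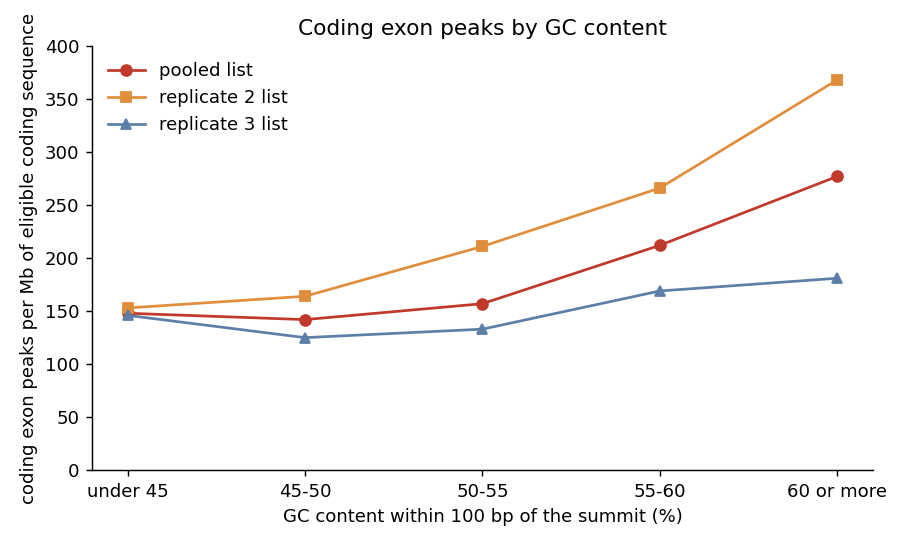
Coding exon peaks per Mb of eligible coding sequence by GC content within 100 bp of the summit, in the pooled list and in each replicate list. Under 45% GC the replicate 2 and replicate 3 lists have 153 and 146 per Mb, and at 60% or more 368 and 181 per Mb.

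Members lay nearer to starts than the coding sequence open to them. The median distance to the nearest start was 1320 bp, against 1950 bp for tiles, and 35.3% of members but 22.8% of tiles were within 1000 bp of one. Per Mb there were 277 members at up to 1000 bp, 209 between 1000 and 2000 bp, 141 between 2000 and 5000 bp and 83.6 beyond, and both replicates fell in the same order (318, 254, 189 and 120 in replicate 2; 219, 169, 124 and 68.3 in replicate 3). Genes with a thresholded summit within 500 bp of a start had 261 members per Mb (302 and 212 in replicates 2 and 3), against 155 per Mb in the other genes (200 and 129). A thresholded summit stood within 2 kb of 22.9% of members, against 10.4% of tiles. Of the members 34.2% had a stronger pooled summit within 1 kb, a share that was not counted for tiles or other peaks. First coding exons held 13.3% of members and 9.72% of tiles, and internal ones 48.8% and 57.3%. The window was coding throughout in 59.0% of members and 64.0% of tiles, and 41.6% and 36.4% lay within 100 bp of a coding edge. With a median peak width of 400 bp, binding in an exon and in adjoining noncoding sequence cannot be told apart near such an edge. The 5 peaks above the threshold and the 20 strongest include members far from any start, such as one in PlexA at 7375 bp. An intron of another transcript covered 281 member summits (8.81%), against 12.3% of tiles, and 2908 members lay in no intron. Among the 20 strongest, the summits so covered were in Crk, CG32425, hzg and pan.

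Sequence that occurs more than once in the genome was not common among them. Words of 31 bases found elsewhere in the 6 arms occurred in 1.6% of member windows, against 3.91% of tiles, and they filled at least 50% of the window in 3 members. No member lay in an annotated transposable element, but the rule keeps only annotated coding sequence and tiles were not counted for this.

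Arm 4, the small dot chromosome whose genes lie in heterochromatin, had the highest density. It held 426 members per Mb, with 397 and 287 per Mb in replicates 2 and 3, while the large autosome arms had 178 to 191 and the X chromosome 133 (167 and 129). Both replicates gave the same highest and lowest arm. On arm 4, 50 of 79 eligible genes had a member, although member windows there averaged 40.2% GC. Relaxed peaks of all kinds were also denser on arm 4, at 351 per Mb.

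**Figure D4:**
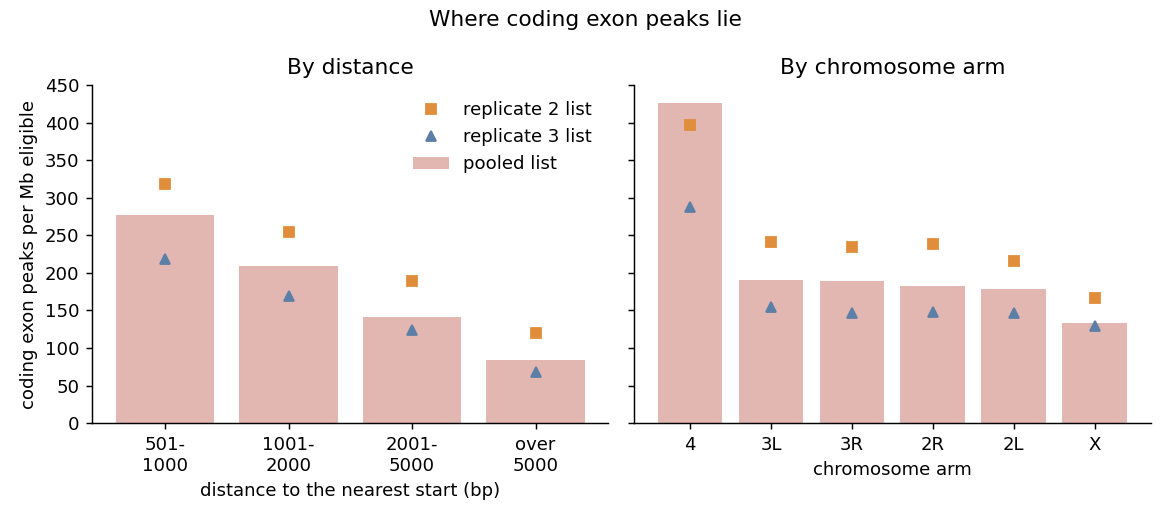
Coding exon peaks per Mb of eligible coding sequence by distance to the nearest protein-coding start (left) and by chromosome arm (right); bars are the pooled list, squares replicate 2 and triangles replicate 3. The bars fall with distance to 83.6 per Mb beyond 5000 bp, and arm 4 stands at 426 per Mb against 133 on X.

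Of 12087 genes with eligible sequence, 2560 had a member, the 21.2% against which the lists below are read. A single member was found in 2080 genes, 2 in 374, 3 in 75 and 4 or more in 31. Members were spread thinly, and some of the genes with most lay on arm 4.

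The gene lola, which encodes BTB zinc finger factors with many alternative last exons, had the most with 9, in 14598 bp of eligible sequence. Several of the 9 summits, that of the strongest included, lay in an intron of another transcript. Of the 9, 2 had summits of both replicates, and the strongest had signal 27.4 and rank 11472, with ranks 11520 and 25101 in replicates 2 and 3. MED26, a subunit of the Mediator complex on arm 4, had 6, none with both replicates. With 5 each followed eEF2, the translocation factor of translation, PlexA, a semaphorin receptor on arm 4, pyd, a scaffold of cell junctions, the anion exchanger gene Ndae1 and the Ras regulator gene raskol.

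In eEF2 the 5 members lay in 2529 bp, or 1.98 per kb, and 3 had both replicates. The strongest had signal 36.4 and pooled rank 6920, with rank 19846 in replicate 2 and rank 4126 in replicate 3. That replicate 2 summit was 183 bp away and also served a second of the 3, from which it lay 16 bp. In Ndae1 all 5 were in the list of replicate 2, and replicate 3 had no coding exon peak in the gene. In raskol replicate 3 had 7 coding exon peaks and replicate 2 had 2. Genes rich in members thus differed in which replicate supplied them. PlexA had its strongest member at signal 45.6 and rank 4712, with ranks 5446 and 5659 in replicates 2 and 3.

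Mitf, which encodes a factor for lysosomal genes, had 4 members at 1.92 per kb. It was 1 of 24 genes with 4, after the 7 genes with 5 or more. Of the 24, those named here are milt, which encodes an adaptor for mitochondrial transport (strongest signal 34.8, 1 of 4 with both replicates) and the zinc finger gene jing (30.8, 2 of 4). Among genes with at least 2000 eligible bp the highest densities after eEF2 and Mitf were 1.59 per kb in CG42342, 1.49 in the zinc finger gene sens-2 and 1.38 in D19A. In none of these last 3 genes did a member have both replicates.

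Below the threshold, the strongest members after CG10357 were in l(3)mbn (signal 52.1, rank 3800), a second one in bif (50.3, rank 4024), CG4080 (47.8, rank 4361), PNUTS (45.6, rank 4710) and PlexA. PNUTS, which targets a phosphatase to the nucleus, stood out among them, because its summit had rank 4055 in replicate 2 and no replicate 3 summit within 200 bp. The coding pieces around the summits in CG10357, l(3)mbn and CG4080 measured 70, 63 and 80 bp, less than the median peak width of 400 bp. Those in bif, PNUTS and PlexA measured 2537, 1332 and 1246 bp. The adaptor gene Crk, the Wingless pathway factor gene pan and the calcium pump gene PMCA, all on arm 4, had signals of 45.4, 42.6 and 42.4. The other members among the 20 strongest were in CG43901, CG32425, hzg, Mkrn1, the respiratory complex I gene ND-B22 and CG14646, with signals between 42.0 and 45.1, and each had summits of both replicates. Ranks could differ widely between replicates even here: the member in CG4080 had rank 26819 in replicate 2 and rank 3381 in replicate 3. The strongest member with neither replicate was in Mcm10, a replication factor gene, with signal 26.3 and rank 12365.

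Cytoplasmic ribosomal protein genes had the highest density of the 12 gene lists. Their 74 eligible genes held 23 members in 21 genes (28.4%), or 974 per Mb, 5.44 times the density over all genes, with 4.18 times in replicate 2 and 5.76 times in replicate 3. Their eligible sequence is short and near starts, with a median of 262 bp a gene, and genes with at most 500 eligible bp had 326 members per Mb. At up to 1000 bp from a start the list had 917 members per Mb, against 277 over all genes, and between 1000 and 2000 bp 1230 against 209. The list was therefore denser than all genes at like distance. Its strongest members were in RpL4 (signal 26.7, rank 12069), RpS2 (26.4, rank 12311), RpL15 (25.4, rank 13208) and RpS27A (25.2, rank 13366), all with both replicates, and 10 of the 23 had both.

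Early chromatin factors and Polycomb group genes held 16 members in 6 of 14 genes, and 9 of the 16 were those of lola. The density was 1.70 times that over all genes (1.45 and 2.33 in replicates 2 and 3). Up to 1000 bp from a start, at 1000 to 2000 bp, at 2000 to 5000 bp and beyond, it was 4.15, 1.1, 0.766 and 4.38 times. These ratios rest on 4, 2, 2 and 8 members. The Polycomb gene Psc had 3, Su(z)2 and the methyltransferase gene E(z) had 1 each, with signals of 25.9, 19.2 and 18.2 at their strongest. The tagged gene zld had 1 member, at signal 16.0 and rank 28973, with a replicate 2 summit and no replicate 3 summit within 200 bp. The eye colour gene w, a common marker of fly transgenes, had none in its 1653 eligible bp, while the replicate 2 list had 1 coding exon peak there.

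Patterning genes, classical targets of Zelda, held 10 members in 8 of 33 genes (24.2%), and 2 of the 10 had both replicates. Both were in nkd, an antagonist of Wingless signalling, at signals of 29.6 and 27.4. Next came the ligand gene wg (signal 26.4), the pair-rule gene ftz (24.4) and the neural homeodomain gene vnd (21.0). With distance to a start left aside, the density was 1.32 times that over all genes in the pooled list and 1.27 times in replicate 2. It was 0.803 times in replicate 3, so that direction was not shared by the replicates. In the same ranges of distance the pooled ratio was 0, 1.03, 4.3 and 1.81, on 0, 3, 6 and 1 members. Both replicates were below all genes up to 1000 bp (85.2 against 318 and 170 against 219 per Mb) and between 1000 and 2000 bp. Both were above between 2000 and 5000 bp (707 against 189 and 202 against 124), and they differed beyond. The counts are small. Homeotic genes held 4 members, 1 each in pb, Ubx, abd-A and lab, none with both replicates. Their ratio of 2.11 became 0.843 in replicate 2 and 1.93 in replicate 3. By distance the pooled ratio was 2.39, 1.66, 6.67 and 0, on 1, 1, 2 and 0 members.

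The 4 lists of structural genes lay below the density over all genes when distance to a start was left aside. At like distance 3 of the 4 did not do so throughout in the pooled list. Muscle genes held 16 members in 8 of 20 genes, 0.408 times it (0.471 and 0.341 in replicates 2 and 3). The strongest were in the myosin light chain gene Mlc2 (signal 39.3), the tropomyosin gene Tm1 (34.5), the myosin heavy chain gene Mhc (32.4) and bt, which encodes projectin (27.2). Mhc had 2, both with both replicates, while Msp300, with 64782 eligible bp, had 3 and none with both. Basement membrane genes held 6 members in 5 of 11 genes, 0.484 times the density (0.516 and 0.491), led by the laminin gene wb (signal 33.8), SPARC (30.7), the laminin gene LanB2 (24.1) and the collagen gene Col4a1 (22.7). Cadherin and apical matrix genes held 4 members in 3 of 24 genes, 0.18 times it (0.181 and 0.494), in trn, which encodes a leucine-rich repeat protein, Cad88C and the E-cadherin gene shg. Cytoskeletal genes held 12 members in 6 of 10 genes, 0.721 times it (0.385 and 0.584), led by shot, zip, jar and alpha-Spec with signals of 27.8, 24.6, 23.4 and 22.8. Many of these genes have long coding sequence far from starts, and genes with over 5000 eligible bp had 84.3 members per Mb in all. In sequence up to 1000 bp, between 1000 and 2000 bp, between 2000 and 5000 bp and over 5000 bp from a start, the cytoskeletal list stood at 3.24, 1.83, 1.60 and 0.739 times all genes in the same sequence, on 1, 2, 5 and 4 members. Muscle genes stood at 1.06, 0.598, 1.08 and 0.512 times it, on 2, 2, 5 and 7 members. Basement membrane genes stood at 2.35, 1.10, 0.266 and 0.388 times it, on 2, 2, 1 and 1. Cytoskeletal genes were thus above all genes within 5000 bp of a start and below them beyond, while cadherin and apical matrix genes were below in each part, at 0, 0.448, 0.404 and 0.159 times. The counts are small.

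Lists of genes used in neurons, sense organs and cuticle had few members. Neuronal genes held 3 in 2 of 16 genes, robo1 and Nrg, both of axon guidance, or 0.215 times the density over all genes (0.457 and 0.174 in replicates 2 and 3). Chemosensory genes held 10 in 8 of 199 genes (4.02%), 0.333 times it (0.507 and 0.486), with the strongest in Ir68a (signal 25.3), Ir31a (23.2), Obp44a (21.1) and Or88a (19.0). The cuticle list held 3 in 91 genes (3.30%), 0.384 times it (0.619 and 0.939), in TwdlG, Cpr67B and Cpr; Cpr matched the list by symbol only, as it encodes a cytochrome P450 reductase. Heat shock genes held 3 in 2 of 23 genes, Hsc70-4 and Hsp110, 0.513 times it (0.96 and 0.208). None of the members in these 4 lists had both replicates. Chemosensory and cuticle genes are short, with medians of 720 and 366 eligible bp, and genes with 500 to 1000 eligible bp had 291 members per Mb in all. In the 4 ranges of distance to a start used above, neuronal genes stood at 0, 0, 0.972 and 0.36 times all genes. Chemosensory genes stood at 0.198, 0.294, 0.723 and 0, cuticle genes at 0.156, 0.981, 0 and 0, and heat shock genes at 0.383, 0.303, 1.42 and 0. These ratios rest on 0 to 5 members each.

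**Figure D5:**
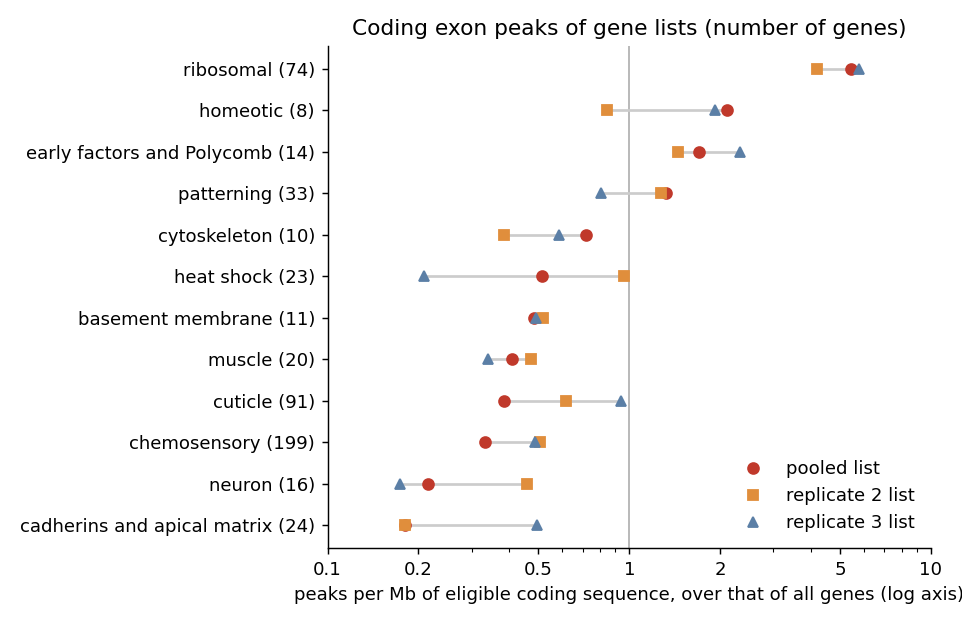
Density of coding exon peaks in 12 gene lists, over the density in all genes, on a log axis, with the number of genes that have eligible sequence in brackets; circles are the pooled list, squares replicate 2 and triangles replicate 3. Ribosomal protein genes stand at 5.44, 4.18 and 5.76, while patterning and homeotic genes have replicates on both sides of 1.

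CAGGTAG stood within 100 bp of the summit in 81 members, or 2.54% (95% Wilson interval 2.05 to 3.15). It stood in 1.79% of flanks centred 1000 bp away and in 1.92% of tiles. The ratio to the flanks was 1.42, and it did not pass (exact McNemar test, two-sided, p = 0.0482, adjusted p = 0.0803 over 10 words), with 80 members holding it at the summit alone and 56 in the flank alone. The word was in 2.52% of replicate 2's coding exon peaks and 2.44% of replicate 3's. Of 84 sites, 49 were within 50 bp of the summit, and in windows of 50 bp to each side the ratio was 1.96 and passed (adjusted p = 0.0345, exact McNemar test). It also passed in windows of 200 bp and in replicate 3 alone, but not in replicate 2 alone or among members of above-median signal. With flanks 500 or 2000 bp away it was 1.16 each and did not pass (adjusted p = 0.688 and 0.585, exact McNemar test). Flanks averaged 48.3% GC, against 53.4% at the summits. Members with the word had summits of both replicates in 27.2% (18.7 to 37.7), against 23.1% of those without, so their intervals overlap. The strongest, in CG13096, had signal 41.4 and rank 5529, with ranks 10717 and 5058 in replicates 2 and 3.

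Most sites lay in 1 reading frame. Of 72 sites wholly within 1 coding exon, 58 (80.6%) lay antisense to the gene in the frame in which the coding strand reads a tyrosine codon and a leucine codon, as in CG13096 and Clc, and in tiles 1190 of 1564 (76.1%) did. The sense frame that would put TAG in register as a stop codon held 0 sites in members and 0 in tiles. Members and tiles were thus alike in the frames that carried the word.

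Of the 9 other words, CACCTG, an E-box that Snail proteins bind, was in 17.7% of members, against 13.6% of flanks (ratio 1.30, adjusted p = 7.44e-05, exact McNemar test) and 15.7% of tiles. CAGCAGCAG, a triplet repeat whose reading frame was not examined, was in 4.92%, against 3.70% of flanks (adjusted p = 0.0355, exact McNemar test), but 4.81% of tiles. TATCGATA, bound by DREF, was in 0.125% of members, against 0.753% of flanks and 0.178% of tiles, and GGTCACAC, bound by M1BP, in 0.314%, against 0.909% and 0.361% (adjusted p = 0.0009 and 0.0113, exact McNemar test). Both of these words belong to promoters, and 23.3% of the flanks were centred within 500 bp of a start. The flanks also averaged 48.3% GC, against 53.4% at the summits, and the tiles are the closer comparison. GAGAG, bound by the GAGA factor, and the other spellings of the Zelda word did not pass, with a ratio of 0.923 for TAGGTAG, a ratio of 1.11 each for CAGGTAA and then CAGGCAG, and a ratio of 0.9 for the spelling CAGGTAT.

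AGNNGGCGC, the word capitalised in Pde1c and klar above, was in 3 of the 5 thresholded members, the third being otp, in 4 of the 20 strongest and in 8.40% (5.61 to 12.4) of the 262 that ranked in the first 10000. It was in 5.61% (4.87 to 6.47) of all members, in 4.92% of replicate 2's coding exon peaks and 5.69% of replicate 3's, against 3.75% (3.63 to 3.88) of tiles and 3.02% of all 2876 thresholded peaks. In windows of at least 50% GC it was in 6.93% (5.95 to 8.05) of members and 5.07% (4.89 to 5.25) of tiles, and below 50% GC in 2.46% (1.64 to 3.66) of members and 1.46% (1.33 to 1.60) of tiles. Members were above tiles in both. Over the whole range of signal the word did not follow strength: cut into 5 equal parts, the strongest first, members held it in 6.74, 4.08, 5.02, 5.80 and 6.44%. The fourth among the 20 strongest was CG10357, and the next ones included Ubr1, which marks proteins for degradation, and Chro, a chromosomal protein. The word was chosen from these windows, so no test was made, and a match is no evidence of the factor.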

How the data were processed

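Anti-GFP ChIP-seq peak lists of 2 biological replicates were analysed. The deposited lists are in narrowPeak format on dm6 and hold 30000 relaxed peaks for each replicate and for the pooled reads, and 2876 thresholded for reproducibility; a control alignment entered them, per the text deposited beside the files. The caller was not given in the sources used here, nor were aligner and filters. The authors' signal per peak has no stated scaling between libraries and served to describe and order peaks inside each list, and in a correlation between the replicate lists. The deposited −log10 q value was used only for its ceiling. Read depth is unknown, so precision comes from peak numbers alone. The dm3 lists were not used.

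Positions are counted from 1; the summit is the deposited start plus offset. Gene models were Ensembl release 115 (BDGP6.54) on arms 2L, 2R, 3L, 3R, 4 and X, and sequence NCBI Release 6, whose arms have the lengths of dm6. Tiles are eligible positions every 200 bp. Windows span 100 bp to each side; the flank is the more coding of the 2 centred 1000 bp away. Shares have 95% Wilson intervals. Rank bands were compared by Fisher's exact test and words by the exact McNemar test, adjusted by Benjamini-Hochberg; both were tested on simulated data. No test was run over the 2 samples. Members and gene lists were chosen with earlier results of these data known. Named genes are those of the 20 strongest members, the 10 with most members (ties to the earlier position), the 5 densest with at least 2000 eligible bp, up to 4 per list, zld, w and every thresholded member; the genes of printed CAGGTAG sites and of AGNNGGCGC, Msp300 and Mcm10 were added after their values were seen. One gene that the rule names is not reported here. Alternatives varied distances, windows, flanks, signal and replicate. Python 3.11.15, numpy 2.4.6, pandas 2.3.3, scipy 1.17.1 and matplotlib 3.10.9 were used.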

Additional observations from a re-analysis of the deposited data

How the results depend on the processing

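Depth is unknown and there are 2 samples of 1 group. No paired analysis was possible because there is only 1 group. With starts at least 1000 bp away 2064 peaks remained. The share with both replicates became 15.1% with 100 bp counted as shared, 31.4% with 400 bp and 40.2% among members of above-median signal. Replicate 2's coding exon peaks had a replicate 3 summit in 11.7% at 100 bp and 25.8% at 400 bp, and replicate 3's a replicate 2 summit in 17.8% and 37.6%. Of the differences from intron peaks of like rank, that from the threshold to rank 10000 was −6.56 points (adjusted p = 0.125, Fisher's exact test) with starts 1000 bp away. That at the next 10000 ranks was −2.29 points at 100 bp (adjusted p = 0.135, Fisher's exact test) and −3.26 points with starts 1000 bp away (adjusted p = 0.125). That at the last 10000 ranks was 0.0687 points at 100 bp (adjusted p = 0.929, Fisher's exact test) and −7.39 points at 400 bp (adjusted p = 3.8e-10). The CAGGTAG ratio was 1.96 in windows of 50 bp to each side (adjusted p = 0.0345, exact McNemar test) and 1.45 in windows of 200 bp (adjusted p = 0.00899). It was 1.39 in replicate 2 alone (adjusted p = 0.0634, exact McNemar test) and 1.73 in replicate 3 alone (adjusted p = 0.0233). With flanks 500 or 2000 bp away it was 1.16 each (adjusted p = 0.688 and 0.585, exact McNemar test). Among members of above-median signal it was 1.5 (adjusted p = 0.178, exact McNemar test). Mean GC was 54.7% within 50 bp and 51.8% within 200 bp. Among members of above-median signal the density ratio was 2.11 for patterning, 3.15 for homeotic, 0.644 for basement membrane, 8.5 for ribosomal and 0.266 for chemosensory genes. Leaving out 1 replicate gave ratios of 0.803 to 1.27 for patterning and 0.843 to 1.93 for homeotic genes, of which 0.803 and 0.843 turn the direction. It gave 0.491 to 0.516 for basement membrane, 0.181 to 0.494 for cadherin and apical matrix, 0.385 to 0.584 for cytoskeleton, 1.45 to 2.33 for early factors and Polycomb, 0.174 to 0.457 for neuron, 4.18 to 5.76 for ribosomal, 0.486 to 0.507 for chemosensory and 0.619 to 0.939 for cuticle genes. The cause of these changes was not tested.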
